A study of Homo sapiens with 6 samples.

Results

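The 34 genes described here encode the enzymes, regulators and transporters of sterol and fatty acid synthesis, and they were taken by gene symbol from a given list. All 34 were found among the 16792 genes of the deposited table. They comprise 7 genes of the mevalonate pathway, 11 that carry squalene to cholesterol, 5 that control the sterol regulatory element binding proteins (SREBPs), 7 of fatty acid synthesis and 4 of sterol transport and its liver X receptor (LXR) control. RNA was sequenced from EndoCBH1, a human pancreatic beta cell line with wild-type genotype, after transfection with an siRNA against the transcription factor MNX1 (siMNX1, 3 libraries) or a non-targeting siRNA (siNT, 3 libraries). Both groups were therefore transfected, and all libraries come from 1 cell line. The labels do not say whether the 3 libraries of a group came from separate cultures, or whether the 3 siMNX1 libraries used the same siRNA, so each p-value rests on the scatter among 3 libraries a group, and that scatter may be technical.

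Cholesterol is built from acetyl-CoA by way of mevalonate, squalene and lanosterol, and fatty acids from the same precursor by way of malonyl-CoA. When membrane sterol is low, SCAP escorts SREBPs from the endoplasmic reticulum to the Golgi, where they are cleaved and released to switch on these genes. When sterol is ample, INSIG proteins hold SCAP back, and oxysterols bind LXRs, which switch on cholesterol export. In beta cells, membrane cholesterol is known to bear on the channels and granules of insulin secretion.

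The targeted gene was only slightly lower in the libraries labelled siMNX1. The normalised count of MNX1 was 2039, 2033 and 1988 in the siNT libraries and 1885, 1708 and 1751 in the siMNX1 libraries. The groups did not overlap, but the log2 fold change of -0.18 (95% interval -0.31 to -0.06) had limma's adjusted p = 0.116. Every comparison below is thus between libraries that differed little in MNX1 RNA. All 18 beta cell markers were listed, and INS was abundant, while IAPP (57.8) and SLC2A2 (36.8) were low. By limma's adjusted p below 0.05 over all genes, 5 of the 18 rose and 2 fell (1.99% and 1.33% of all genes). The summed level of the 18 markers was 316429 to 326635 in siNT and 387163 to 402569 in siMNX1. CHGA (mean 150359 in siNT and 208161 in siMNX1) and INS (110539 and 125386) made up most of that sum, and the median log2 fold change of the 18 markers was -0.03, with 8 above 0 and 10 below. CHGA (log2 fold change 0.47), PCSK2 (0.56) and PTPRN (0.42) were among those that rose, and G6PC2 (-0.36) among those that fell. Of 20 markers of other pancreatic, stromal and blood cells 6 were listed, none passed the test, and their sum was 3220 to 3419 in siNT and 3192 to 3369 in siMNX1 (CD68 -0.20, KRT19 0.19). Mitochondrial genes held 5.39% to 6.81% of the total in siNT and 5.43% to 6.49% in siMNX1. On the first principal component, with 29.4% of the variance, the groups separated. On the second component, with 20.1%, siMNX1 replicates 1 and 2 stood apart at -29.4 and 31.7, and the other 4 libraries lay between -2.40 and 2.66. The part of these differences in the results below was not tested.

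No gene of the set passed the test between siMNX1 and siNT, and most were measured closely enough to bound the difference. With limma on log2(value + 1) and an adjusted p below 0.05 over all genes, 335 of 16792 genes rose (1.99%) and 223 fell (1.33%), 3.32% in all, against 0 of 34 here. The median log2 fold change of the 34 genes was 0.01 (range -0.37 to 0.21), with 18 above 0 and 16 below, and that of all genes was 0.00. At an unadjusted p below 0.05, 7 of the 34 were higher (20.6%, against 9.81% of all genes) and 2 were lower (5.88%, against 8.56%). These shares of all genes were not matched for level. The 95% interval lay between 20% lower and 25% higher, the same fold in either direction, for 27 of the 34 genes (79.4%, against 39.0% of all genes). The set is abundant. Of the 873 genes at or above its median level of 3814, 86.25% had such an interval and 7.216% passed the adjusted test. Genes of the set below that level count in the 79.4% but not among the 873, so these shares are not like for like. In these bulk libraries, fewer cells making a transcript and less transcript per cell cannot be told apart.

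**Figure D1:**
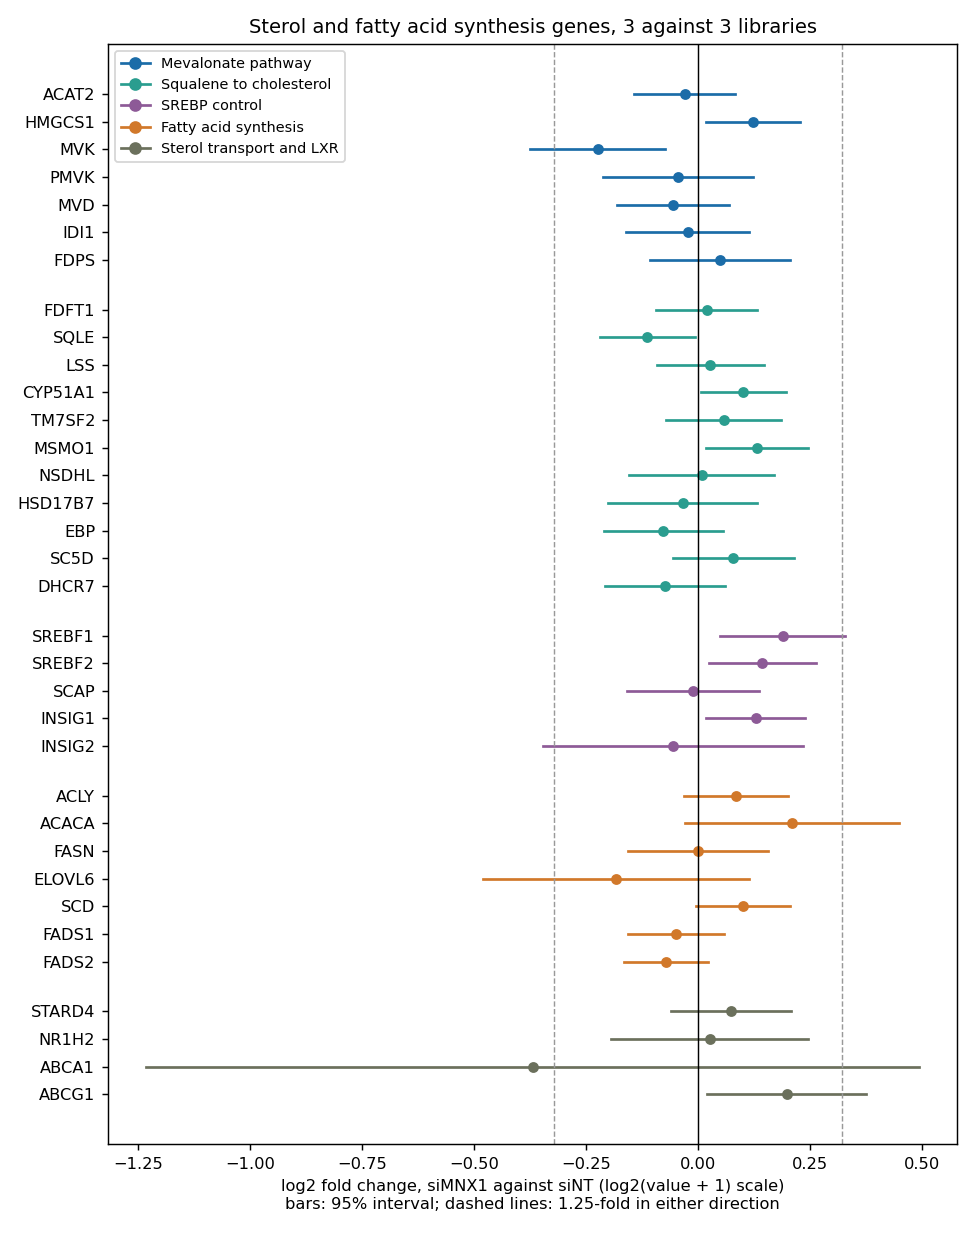
Log2 fold change of each of the 34 genes (x axis, siMNX1 against siNT on the log2(value + 1) scale), with the 95% interval from limma as a bar, 3 libraries against 3, coloured by role. The intervals of 27 genes lie between the dashed lines at 20% lower and 25% higher, and that of ABCA1 is the widest.

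The promoters show which regulatory letters these genes carry ahead of their start sites. RefSeq promoters of GRCh38.p14, from 250 bases before to 50 bases after a start, were matched for 29 of the 34 genes (39 promoters), leaving SQLE, ABCG1, FASN, ACAT2 and FDFT1 unmatched. Motif letters were searched on both strands. The SRE core TCACCCCAC, to which SREBPs bind, was in the promoter of SREBF2 alone among the 29 genes (3.45%, against 0.512% of the 11515 listed genes with a promoter). Its looser form TCACNCCAC, which contains the core, was found in the same gene only (1.41% of those genes). The CCAAT box, bound by NF-Y, was in 20 of the 29 genes (69.0%), against 42.9% of those genes. The GC box GGGCGG, bound by Sp1, was in 28 of the 29 (96.6%), against 75.2% of those genes. Counted by promoter, CCAAT was in 24 of 39 (61.5%, against 34.6% of all 35116 promoters) and GGGCGG in 35 of 39 (89.7%, against 45.0%). The E-box CACGTG was in ABCA1, INSIG1, LSS, SC5D and SCAP (17.2%, against 12.3% of listed genes), and its longer form TCACGTGA, which contains it, in INSIG1 alone (2.14% of listed genes). These are matches of letters, not measured binding. Only these letters were searched, so a gene without a match is not shown to lack a site for SREBPs.

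Below are the 250 bases before the start of 4 genes whose groups did not overlap: the regulators SREBF2 and INSIG1, with an SRE core and an E-box match, and the enzymes HMGCS1 and MVK, whose fold changes lay on opposite sides of 0. Capitals mark CCAAT (or ATTGG on the other strand), GGGCGG (or CCGCCC), TCACCCCAC and TCACGTGA. SREBF2 lies on the plus strand (chr22:41832855-41833104), INSIG1 on the plus strand (chr7:155297628-155297877), HMGCS1 on the minus strand (chr5:43313413-43313662, the first of its listed starts) and MVK on the plus strand (chr12:109573544-109573793), all in GRCh38.p14 and written 5′ to 3′ on the gene's strand.
SREBF2: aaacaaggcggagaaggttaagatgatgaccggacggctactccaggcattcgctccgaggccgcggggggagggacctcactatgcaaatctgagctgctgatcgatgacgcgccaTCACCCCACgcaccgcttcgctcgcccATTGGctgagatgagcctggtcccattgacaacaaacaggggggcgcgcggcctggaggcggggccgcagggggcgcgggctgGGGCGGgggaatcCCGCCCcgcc
INSIG1: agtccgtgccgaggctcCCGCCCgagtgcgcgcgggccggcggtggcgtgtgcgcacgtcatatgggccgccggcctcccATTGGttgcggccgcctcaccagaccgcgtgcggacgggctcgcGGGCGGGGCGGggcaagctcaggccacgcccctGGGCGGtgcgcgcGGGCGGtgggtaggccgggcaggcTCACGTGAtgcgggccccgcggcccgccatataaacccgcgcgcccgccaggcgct
HMGCS1: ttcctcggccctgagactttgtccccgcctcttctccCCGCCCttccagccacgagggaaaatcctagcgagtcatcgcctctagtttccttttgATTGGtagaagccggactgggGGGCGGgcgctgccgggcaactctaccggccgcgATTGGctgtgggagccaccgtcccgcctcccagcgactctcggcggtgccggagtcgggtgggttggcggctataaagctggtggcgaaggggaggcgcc
MVK: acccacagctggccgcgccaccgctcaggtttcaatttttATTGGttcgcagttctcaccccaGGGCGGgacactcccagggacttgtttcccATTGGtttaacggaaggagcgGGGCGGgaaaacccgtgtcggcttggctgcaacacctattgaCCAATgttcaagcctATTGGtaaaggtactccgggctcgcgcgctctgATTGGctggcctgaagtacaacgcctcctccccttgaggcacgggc
In SREBF2 the SRE core runs from -133 to -125 and the ATTGG from -106 to -102, counted from the start. In INSIG1 the TCACGTGA runs from -56 to -49. MVK holds 5 CCAAT matches in this window and HMGCS1 holds 2.

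The mevalonate pathway was close to level, with 1 of 7 genes higher and 1 lower between non-overlapping groups (12.0% and 12.1% of all genes). HMGCS1, the cytosolic synthase that makes HMG-CoA, had normalised counts of 16125, 15221 and 14726 in siNT and 17275, 16183 and 16707 in siMNX1. All siMNX1 libraries lay above all siNT libraries, by a narrow margin between siMNX1 replicate 2 and siNT replicate 1. The log2 fold change was 0.12 (95% interval 0.02 to 0.23), with limma's adjusted p = 0.198. MVK, the kinase that puts the first phosphate on mevalonate, had counts of 2022, 1817 and 1968 in siNT and 1709, 1533 and 1731 in siMNX1. Every siMNX1 library was below every siNT library, and siMNX1 replicate 2 was lowest. MVK's log2 fold change was -0.22 (95% interval -0.37 to -0.07), with limma's adjusted p = 0.111, the lowest adjusted p of the 34 genes. MVK overlaps MMAB on the opposite strand, and the handling of strand is not given in the sources used here, so their reads cannot be told apart. MMAB had a log2 fold change of 0.01.

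The other 5 enzymes of the pathway differed by at most 0.06 on the log2 scale. ACAT2, the thiolase that joins acetyl-CoA units, had a mean of 2132 ± 48.0 (SD, n = 3) in siNT and 2088 ± 60.9 in siMNX1, a log2 fold change of -0.03. PMVK, the next kinase, was at 708 ± 52.7 and 685 ± 16.0 (-0.04). MVD, which decarboxylates the product to isopentenyl pyrophosphate, was at 2773 ± 44.0 and 2672 ± 160 (-0.06). IDI1, the isomerase of that unit, and FDPS, which condenses units to farnesyl pyrophosphate, stood on either side of 0. IDI1 had 2069 ± 51.5 and 2039 ± 142 (-0.02), and FDPS 5771 ± 245 and 5983 ± 569 (0.05).

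Among the 11 genes from squalene to cholesterol, 2 were higher and 1 was lower between non-overlapping groups (12.0% and 12.1% of all genes), and all 11 intervals lay between 20% lower and 25% higher. SQLE, the epoxidase that oxidises squalene and is a control point of the pathway, had counts of 4554, 4560 and 4344 in siNT and 4276, 4169 and 4001 in siMNX1. The gap between groups was smaller than the range within either. Its log2 fold change was -0.11 (95% interval -0.22 to -0.01; limma's adjusted p = 0.238). CYP51A1, which demethylates lanosterol, went the other way, with 10112, 9717 and 9505 in siNT and 10735, 10350 and 10376 in siMNX1. Its log2 fold change was 0.10, with limma's adjusted p = 0.237. MSMO1, the methyl oxidase of the following steps, had 5781, 5716 and 5394 in siNT and 6400, 5858 and 6252 in siMNX1. Replicate 2 was again the lowest siMNX1 library, close to siNT replicate 1. MSMO1's log2 fold change was 0.13, with limma's adjusted p = 0.200.

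The remaining 8 genes of this segment had log2 fold changes from -0.08 to 0.08. FDFT1, squalene synthase, was at 4211 ± 86.9 in siNT and 4271 ± 211 in siMNX1 (0.02). LSS, which closes the rings to lanosterol, was at 6178 ± 335 and 6295 ± 255 (0.03). TM7SF2, a sterol reductase, was at 3262 ± 151 and 3396 ± 175 (0.06). NSDHL and HSD17B7 act with MSMO1 in removing methyl groups, and both lay close to 0. NSDHL was at 500 ± 6.16 and 503 ± 17.2 (0.01), and HSD17B7 at 1241 ± 34.9 and 1215 ± 114 (-0.03). EBP, the sterol isomerase, was at 6959 ± 109 and 6611 ± 536 (-0.08). The last steps were also near 0: SC5D, the desaturase, was at 3642 ± 217 and 3847 ± 210 (0.08), and DHCR7, the reductase that yields cholesterol, at 4749 ± 261 and 4513 ± 263 (-0.07).

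Of the 5 genes that control SREBPs, 3 were higher in siMNX1 at an unadjusted p below 0.05 (9.81% of all genes), and none passed the adjusted test. SREBF2, which encodes the SREBP best known for sterol genes, had 8829, 8704 and 8893 in siNT and 9656, 10470 and 9109 in siMNX1. The groups did not overlap, and siMNX1 replicate 2 was highest and replicate 3 nearest to siNT. Its log2 fold change was 0.14 (95% interval 0.02 to 0.26), with limma's adjusted p = 0.188, and it was 0.09 without siMNX1 replicate 2. SREBF1, whose SREBP products act more on fatty acid genes, had 3457, 3550 and 3883 in siNT and 4215, 3862 and 4337 in siMNX1. Here the groups overlapped, since siMNX1 replicate 2 was below siNT replicate 3. SREBF1's log2 fold change was 0.19 (95% interval 0.05 to 0.33), with limma's adjusted p = 0.144. INSIG1, the first retention protein, had 9933, 9106 and 9063 in siNT and 10606, 9967 and 10128 in siMNX1. The lowest siMNX1 library was just above the highest siNT library. INSIG1's log2 fold change was 0.13, with limma's adjusted p = 0.203. SCAP, the escort protein, was at 2218 ± 156 and 2199 ± 113 (-0.01). INSIG2, the second retention protein, was at 460 ± 57.7 and 444 ± 66.2 (-0.06), with a 95% interval of -0.35 to 0.23 that reaches beyond 20% lower.

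Fatty acid synthesis had a median log2 fold change of 0.00 over its 7 genes, and no gene had an unadjusted p below 0.05. ACACA, the carboxylase that makes malonyl-CoA, had 2932, 2467 and 2472 in siNT and 2690, 3590 and 2864 in siMNX1. One library, siMNX1 replicate 2, stood above the other 5. Its log2 fold change was 0.21 with a 95% interval of -0.03 to 0.45, and 0.09 without that library. ELOVL6, which elongates palmitate, was at 1154 ± 183 and 1017 ± 172, a log2 fold change of -0.18 with an interval of -0.48 to 0.11; it was -0.06 without siNT replicate 2 and -0.32 without siMNX1 replicate 2. The other 5 had log2 fold changes from -0.07 to 0.10. SCD, the desaturase that makes oleate and palmitoleate, was at 32958 ± 1926 and 35307 ± 295 (0.10). ACLY, which makes cytosolic acetyl-CoA from citrate, was at 15116 ± 548 and 16040 ± 919 (0.08). FASN, the synthase that builds palmitate, was at 11593 ± 1021 and 11580 ± 772 (0.00). The desaturases of polyunsaturated fatty acids were both slightly lower. FADS1 was at 13554 ± 768 and 13081 ± 126 (-0.05), and FADS2 at 22572 ± 928 and 21469 ± 233 (-0.07). They overlap on opposite strands, and FADS2 also holds FEN1 on its own strand, a replication nuclease with a log2 fold change of -0.26 (limma's adjusted p = 0.0148).

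The 4 genes of sterol transport differed among themselves in level and in spread. ABCG1, a cholesterol exporter switched on by LXR, had 497, 486 and 470 in siNT and 601, 528 and 540 in siMNX1. Its groups did not overlap, and the log2 fold change was 0.20 (95% interval 0.02 to 0.38), with limma's adjusted p = 0.219. ABCA1, the other LXR-driven exporter, had 14.9, 13.5 and 34.0 in siNT and 16.3, 14.6 and 12.9 in siMNX1. Only siNT replicate 3 was high, and the other 5 libraries ranged from 12.9 to 16.3. ABCA1's log2 fold change was -0.37 (95% interval -1.23 to 0.49; limma's adjusted p = 0.660), and it was 0.03 without siNT replicate 3. STARD4, a cytosolic sterol carrier, was at 1316 ± 32.2 and 1386 ± 70.4 (0.07). NR1H2, which encodes LXR-beta, was at 284 ± 3.84 and 290 ± 26.5 (0.03).

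Taking non-overlap of groups as a plain count, 6 of the 34 genes were wholly higher in siMNX1 (17.6%, against 12.0% of all genes). Another 2 were wholly lower (5.88%, against 12.1%). The higher ones were HMGCS1, CYP51A1, MSMO1, SREBF2, INSIG1 and ABCG1, and the lower ones MVK and SQLE. Shares of all genes were again not matched for level. With 1 library left out, non-overlap is more frequent over all genes too. The count of higher genes was then 11 without siMNX1 replicate 2 (32.4%, against 17.4% of all genes). With any other library left out it was 7 or 8 (20.6% or 23.5%, against 16.0% to 17.4% of all genes). The count of lower genes was 6 without siMNX1 replicate 1 (17.6%, against 17.2%), and 4 (11.8%) when siNT replicate 2, siNT replicate 3 or siMNX1 replicate 2 was left out (17.0%, 16.3% and 18.0% of all genes). Under equal totals or upper-quartile scaling the counts were 4 higher and 3 lower, and no share of all genes was taken there.

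Libraries of 1 group differed from each other in these genes, in siNT as well as in siMNX1. In siMNX1, replicate 1 was the highest of its group for 16 of the 18 sterol enzymes (32.1% of all genes) and replicate 2 the lowest for 13 (34.0% of all genes). In siNT, replicate 1 was the highest of its group for 9 of the 18 (35.3% of all genes) and replicate 3 the lowest for 10 (31.6% of all genes). Among the 7 fatty acid genes, siNT replicate 1 was the highest of its group for 6 and siMNX1 replicate 2 for 5 (36.5% of all genes). Over all 6 libraries, siMNX1 replicate 1 was highest for 14 of the 34 genes, and siMNX1 replicate 2 was lowest for 8 of the 18 sterol enzymes. No share of all genes was taken for these ranks over 6 libraries, so they have no background here. The 34 genes together held 1.17%, 1.09% and 1.11% of the deposited total in siNT and 1.18%, 1.14% and 1.14% in siMNX1.

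**Figure D2:**
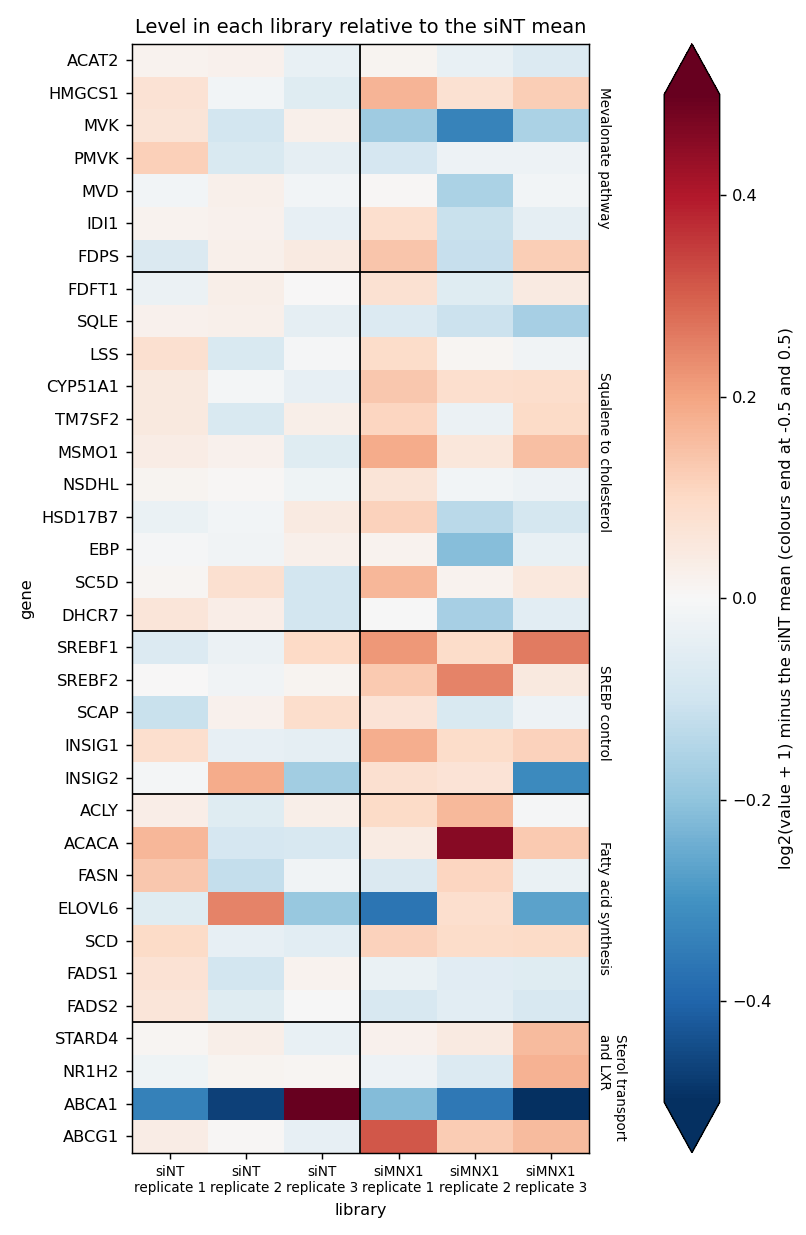
Each row is a gene and each column a library, with colour giving log2(value + 1) minus the siNT mean of that gene (colours end at -0.5 and 0.5). In siMNX1 replicate 2 most sterol enzymes are the lowest of their group (13 of 18), and ABCA1 is high only in siNT replicate 3.

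Per kilobase of exon, most of the set was highly expressed. Levels between genes are compared here as normalised counts per kb of the union of exons in GENCODE 29, which gave a length to 16593 genes. By the mean over all 6 libraries, 31 of the 34 genes were above the median of all genes (85.97 per kb), and 20 were in the top 10%, which began at 524.6 per kb. SCD led with a siNT mean of 6147 per kb, followed by HMGCS1 (3266), ACLY (2897), EBP (2889), CYP51A1 (2728) and INSIG1 (2566). At the low end were INSIG2 (116), ABCG1 (79.1), NR1H2 (75.7) and ABCA1 (1.83). The levels of ACLY, EBP and CYP51A1 lay close together, and so did those of ABCG1 and NR1H2. The order depends on the length used: per kb of the longest transcript, as means over all 6 libraries, FADS2 (4341) came after SCD (6366) and HMGCS1 (4575) and ahead of EBP (3822) and ACLY (3590), and ABCG1 (150) was above INSIG2 (142).

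Ratios between genes set in pairs lay close in both groups, apart from ABCG1 to ABCA1, which varied widely in siNT. Per kb, INSIG1 was 22.3 ± 2.89 times INSIG2 in siNT (SD, n = 3) and 25.3 ± 3.95 times in siMNX1. SREBF2 was 2.58 ± 0.141 times SREBF1 in siNT and 2.52 ± 0.332 times in siMNX1. The ratio of SCD to FASN was 4.98 ± 0.228 and 5.34 ± 0.383, and that of FADS2 to FADS1 was 1.55 ± 0.030 and 1.52 ± 0.026. These ratios differed between groups by less than 2 SDs of the siNT libraries. ABCG1 was 51.4 ± 22.5 times ABCA1 in siNT and 71.1 ± 5.86 times in siMNX1, with the siNT spread set by ABCA1 in replicate 3.

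**Figure D3:**
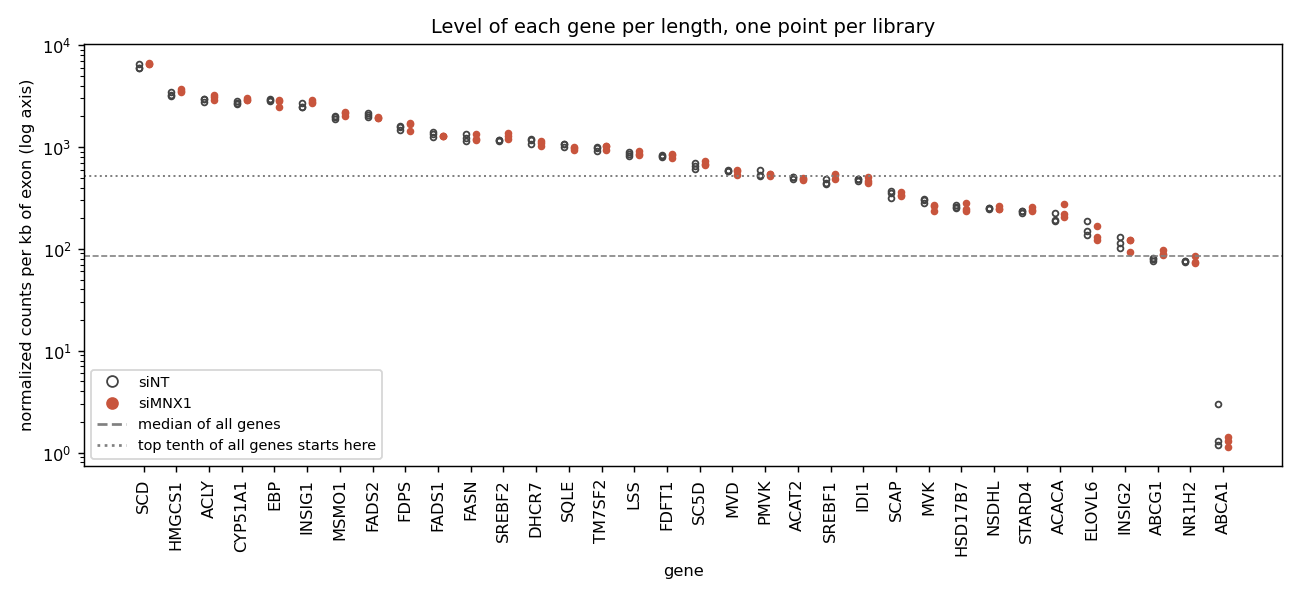
Normalised counts per kb of exon (y axis, log scale) for each gene, ordered by level, with 1 point per library (open, siNT; filled, siMNX1). The dashed line is the median of all genes and the dotted line the start of the top 10%; 20 genes lie above the dotted line and ABCA1 is the lowest by far.

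Beyond the 34 genes, 5 lists of other genes in these pathways were examined, 99 of whose 103 genes were measured; 1 of the 99 rose and 1 fell (1.99% and 1.33% of all genes). At an unadjusted p below 0.05, 10 were higher and 15 lower (9.81% and 8.56% of all genes), and their median log2 fold change was 0.02. FADS3, a fatty acid desaturase of the FADS cluster, had 609, 686 and 662 in siNT and 459, 499 and 410 in siMNX1. It fell by 0.52 on the log2 scale (95% interval -0.72 to -0.31), with limma's adjusted p = 0.0175. When siNT replicate 2 was left out the log2 fold change was -0.48 (limma's adjusted p = 0.0804), when siNT replicate 3 was left out -0.51 (0.0884), and when siMNX1 replicate 1 was left out -0.53 (0.0597). The call was lost in these smaller fits, while the size of the difference stayed close to that over all 6 libraries. GPAT4, an acyltransferase that begins glycerolipid synthesis, had 5300, 5026 and 5011 in siNT and 6513, 6965 and 6731 in siMNX1. It rose by 0.40 on the log2 scale (95% interval 0.29 to 0.50), with limma's adjusted p = 0.00206. With no variance trend, limma's adjusted p was 0.0781 for FADS3 and 0.0529 for GPAT4.

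Apart from FADS3 and GPAT4, no gene of these lists passed the test. The counts at an unadjusted p below 0.05 that follow stand beside 9.81% of all genes higher and 8.56% lower. Of 16 further sterol and prenyl genes, 2 were higher and 1 lower at an unadjusted p below 0.05 (median 0.03). PGRMC1, a haem-binding partner of sterol P450 enzymes, had a log2 fold change of -0.02. Of 20 genes of SREBP processing and sterol-driven degradation, 4 were higher and 0 lower at an unadjusted p below 0.05 (median 0.09). Above 0 were 16 of these 20, against 8381 of all 16792 genes. Among sterol and prenyl genes 11 of 16 were above 0, and among genes of LXR partners and cholesterol transport 13 of 22. Among fatty acid genes 9 of 24 were above 0, and among glycerolipid genes 5 of 17. MBTPS1, the first protease to cleave SREBPs, was at 4090 ± 46.9 and 4438 ± 79.9 (0.12; limma's adjusted p = 0.179), while the ATPase VCP had -0.07. Of 24 measured fatty acid genes, FADS3 included, the median was -0.06 and 0 were higher and 6 lower at an unadjusted p below 0.05. The 17 glycerolipid genes, GPAT4 included, had a median of -0.12, with 3 higher and 6 lower. The 22 measured genes of LXR partners and cholesterol transport had a median of 0.06, with 1 higher and 2 lower. RXRA, the partner receptor of LXRs, had 0.10, and SCARB1, a lipoprotein receptor, had -0.15.

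**Figure D4:**
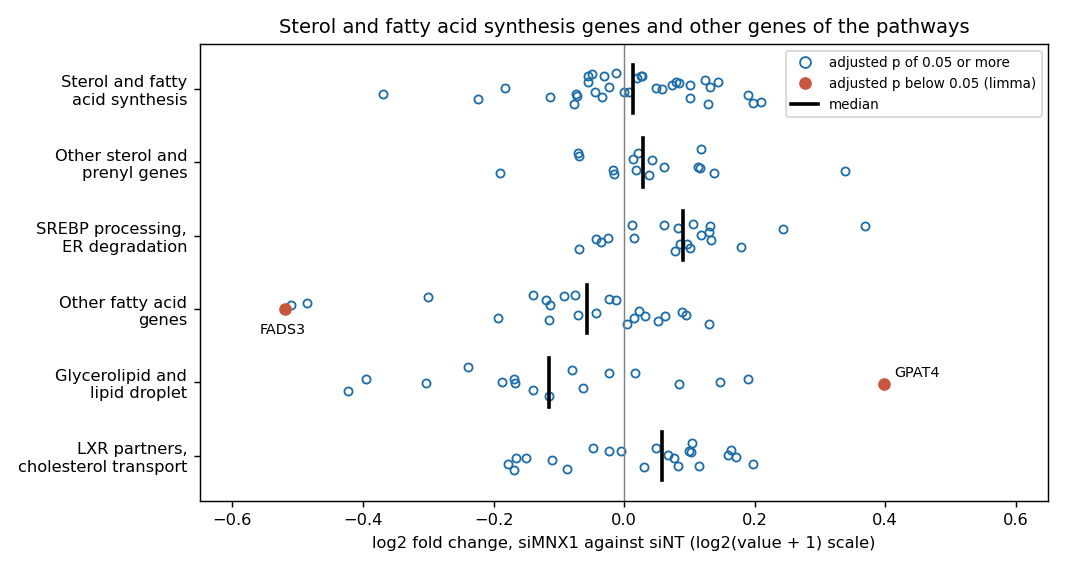
Log2 fold change (x axis, siMNX1 against siNT) of the 34 genes and of 5 lists of other genes in the pathways, 1 point per gene, with the median as a vertical bar. Filled points passed limma's adjusted test: FADS3 (-0.52) and GPAT4 (0.40).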

How the data were processed

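RNA was measured by RNA-seq, 3 libraries per group, from 5 ng of total RNA each with a kit that amplifies and depletes rRNA, per the labels' protocols; the labels name the molecule as polyA RNA. Per the submitters' processing notes, STAR 2.7.6a, RSEM 1.3.1, R 3.6.3 and DESeq2 1.26.0 were used on GRCh38, with no role or order given. The authors deposited normalised counts, a signal that is not whole and not log-scaled; whole reads could not be recovered (13.2% to 42.2% of low values fell within 0.1 of a whole multiple), so the true depth is unknown. Deposited totals were 18406500 to 18704600, and follow the normalisation.

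The groups were compared with limma 3.58.1 in R 4.3.3 (variance trend, no block) on log2(value + 1), with no gene filtered, and p-values adjusted by Benjamini-Hochberg over 16792 genes. Fold changes understate low genes. The script was tested on simulated data. The members and lists were chosen with earlier results of these data known, and the bound of 20% lower to 25% higher after seeing the data. All members are named, with values in each library where groups did not overlap or the log2 fold change reached 0.3; SREBF1 and ACACA were added after their values were seen. From each other list up to 4 genes past the threshold are named, or the 2 of highest mean; 1 gene that this rule names is not reported here. Alternatives were the pseudocount, a filter, scalings, variance models, a replicate block and each library left out. Of the 34 genes, 14 overlap another listed gene, 13 on the opposite strand; pseudogenes of CYP51A1 and HSD17B7 are listed too, and could share reads. Python 3.11.15 was used.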

Additional observations from a re-analysis of the deposited data

How the results depend on the processing

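The 15 alternatives were the pseudocount, a filter on low values, scaling, the variance model, a replicate block and each library left out; a table with no filter equals the reported one. Of 509 values of the 34 genes, 491 kept their direction with no call, 18 reversed, over 11 genes, and 0 became called (lowest adjusted p from limma 0.0764). Over all genes, 131 rose and 60 fell with no variance trend, and 133 to 257 rose and 64 to 179 fell with a library left out, the lowest without siNT replicate 3. With the replicate block, 162 rose and 75 fell; same-numbered libraries did not deviate together (correlations -0.0135, -0.0085 and -0.0377), so the numbers were not taken as pairs. Of the other pathway genes, 0 rose with no variance trend and 0 to 2 fell with a library left out. With a library left out, the median for sterol transport was -0.007 to 0.081. Counts of non-overlapping genes among the 34 were 7 to 11 higher and 2 to 6 lower with a library left out. Over all genes, 16.0% to 17.4% were then higher and 16.3% to 18.0% lower. Under the other scalings the counts were 4 to 6 higher and 2 to 3 lower, with no share of all genes taken. These alternatives for the counts were chosen after seeing the data. FASN was 0.002 with median-of-ratios factors. Log2 fold changes with a library left out were -0.083 to 0.016 for PMVK, -0.077 to 0.021 for IDI1, -0.009 to 0.06 for FDFT1, -0.01 to 0.068 for LSS, -0.02 to 0.026 for NSDHL, -0.11 to 0.015 for HSD17B7, -0.068 to 0.033 for SCAP, -0.143 to 0.074 for INSIG2, -0.059 to 0.067 for FASN, -0.047 to 0.073 for NR1H2, -0.603 to 0.033 for ABCA1 and -0.053 to 0.017 for PGRMC1. Levels per kb of the longest transcript were 1 to 2.27 times those per kb of union exon, and 20 genes were in the top 10% by either length, a check added after seeing the data, though the order of levels changed. The cause of these shifts was not tested.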
